A study of Mus musculus with 7 samples.

Results

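Coarse cluster 11 is a group of deeply counted cells in single-cell RNA libraries of the mouse uterus. Its members were chosen by the authors' coarsest Louvain clustering of the cells' expression profiles (resolution 0.2, 19 clusters), as the cells numbered 11, and the cluster was picked for its high UMI counts and its higher share at days 0 and 5. They were 2027 of 107443 cells, or 1.89% of cells and 5.28% of all UMIs. A UMI is a molecular tag that counts 1 captured RNA molecule. The study profiled uteri of mice labelled Kdm6b cKO, where cKO usually stands for conditional knockout, and of control mice. Tissue of pregnant mice was dissected at the implantation site (myometrium/endometrium) or between such sites (inter-implantation). The labels name neither the promoter or Cre line behind the cKO nor the age of the mice.

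The cKO and the control group held 14 specimens each, tagged by lipid-conjugated oligonucleotides, mixed into 7 pools and processed in 3 experiments. Experiment 1 held myometrium/endometrium of days 12, 14, 16 and 18. Experiment 2 held inter-implantation tissue of those 4 days and myometrium/endometrium of days 12 and 18. Experiment 3 held tissue of days 0, 5 and 8 labelled inter-implantation and myometrium/endometrium of day 12. Each combination of site, day and experiment has 1 cKO and 1 control specimen. Day 0 stands for non-pregnant mice of either genotype under progesterone (daily dose 0.2 mg, for 3 days), and each day 0 and day 5 specimen pooled the uteri of 2 mice. For day 0, inter-implantation is only the deposited site label, since non-pregnant mice have no implantation sites. Day 0 tissue may therefore differ in dissection from that of later days.

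Kdm6b encodes a demethylase that removes methyl groups from lysine 27 of histone H3, a mark associated with silenced genes. The uterus contains smooth muscle of the myometrium and stroma, epithelium, vessels and immune cells of the endometrium. It is remodelled under progesterone, by the decidual reaction of the stroma after implantation, and again before labour.

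The values used list cells and no gene, so the cluster has no cell type name here and the level of Kdm6b was not analysed. The working description of the cluster as a population of early pregnancy does not match its specimens in full, since 517 of its cells came from the non-pregnant specimens. Specimens held 1769 to 5720 cells. The share of cells with fewer than 1000 genes was 41.3% in experiment 1, 13.4% in experiment 2 and 15.4% in experiment 3, while 20 members fell below 1000 genes. Barcodes found in more than 1 pool accounted for 2.50% of all cells and 3.31% of the members. Specimens are dissected tissue, so more cells of the cluster and better release of those cells in digestion cannot be told apart.

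The cluster was most frequent in the inter-implantation tissue of days 0, 5 and 8. These specimens held 1447 members, or 71.4% of the cluster, against 21.1% of all cells. The share of specimen cells at day 0 was 6.10% in cKO tissue (255 cells, exact 95% interval 5.40% to 6.87%) and 6.88% in control tissue (262 cells, 6.10% to 7.73%). At day 5 it was 7.31% in cKO tissue (242 cells, 6.45% to 8.25%) and 9.62% in control tissue (331 cells, 8.66% to 10.7%). At day 8 it was 5.46% in cKO tissue (227 cells, 4.79% to 6.20%) and 3.49% in control tissue (130 cells, 2.92% to 4.13%). Thus the cKO specimen was below its control at days 0 and 5 and above it at day 8. These intervals cover counting error only, and each of these values rests on 1 specimen. The 3 other clusters of the highest median UMIs were also found in this tissue. Cluster 12 took 2.35% of cKO cells and 4.05% of control cells at day 0, 0.302% of cKO cells and 0.0581% of control cells at day 5, and 5.44% of cKO cells and 0.590% of control cells at day 8. Cluster 13 took 2.47% of cKO cells and 2.60% of control cells at day 0, 0.363% of cKO cells and 0.116% of control cells at day 5, and 3.44% of cKO cells and 2.23% of control cells at day 8. Cluster 18 has 67 cells, of which 95.5% came from inter-implantation tissue of days 0 to 8.

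From day 12, all specimens but the day 12 control inter-implantation one lay below the lowest share of days 0 to 8. Over the 22 specimens of days 12 to 18 the median was 0.395% and the range 0.128% to 4.52%. In inter-implantation tissue of day 12, the share was 0.415% in the cKO specimen (16 cells) and 4.52% in the control specimen (80 cells). At day 14 it was 0.131% in the cKO specimen (6 cells) and 0.559% in the control specimen (23 cells). At day 16 it was 0.226% in the cKO specimen (9 cells) and 0.137% in the control specimen (6 cells), and at day 18 it was 0.801% in the cKO specimen (15 cells) and 0.339% in the control specimen (16 cells). The control specimen of day 12 thus lay within the range of the day 0 to 8 specimens, while the other 7 lay below it. That specimen had the fewest cells of all (1769), and its other cells had a median of 4495 UMIs, against 9918 in the cKO specimen of day 12.

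Myometrium/endometrium was measured from day 12 on. At day 12 its share was 0.242% in the cKO specimen and 1.02% in the control specimen of experiment 1, 1.00% and 1.02% in the cKO and control specimens of experiment 2, and 1.86% and 3.31% in the cKO and control specimens of experiment 3. The same site and day therefore covered a range from 0.242% to 3.31%, and both specimens of experiment 3 were above the other 4. Day 14 gave 0.128% in the cKO specimen and 0.236% in the control specimen, and day 16 gave 0.241% in the cKO specimen and 0.175% in the control specimen. At day 18, the share was 0.505% in the cKO specimen and 0.375% in the control specimen of experiment 1, and 0.474% in the cKO specimen and 0.142% in the control specimen of experiment 2.

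**Figure D1:**
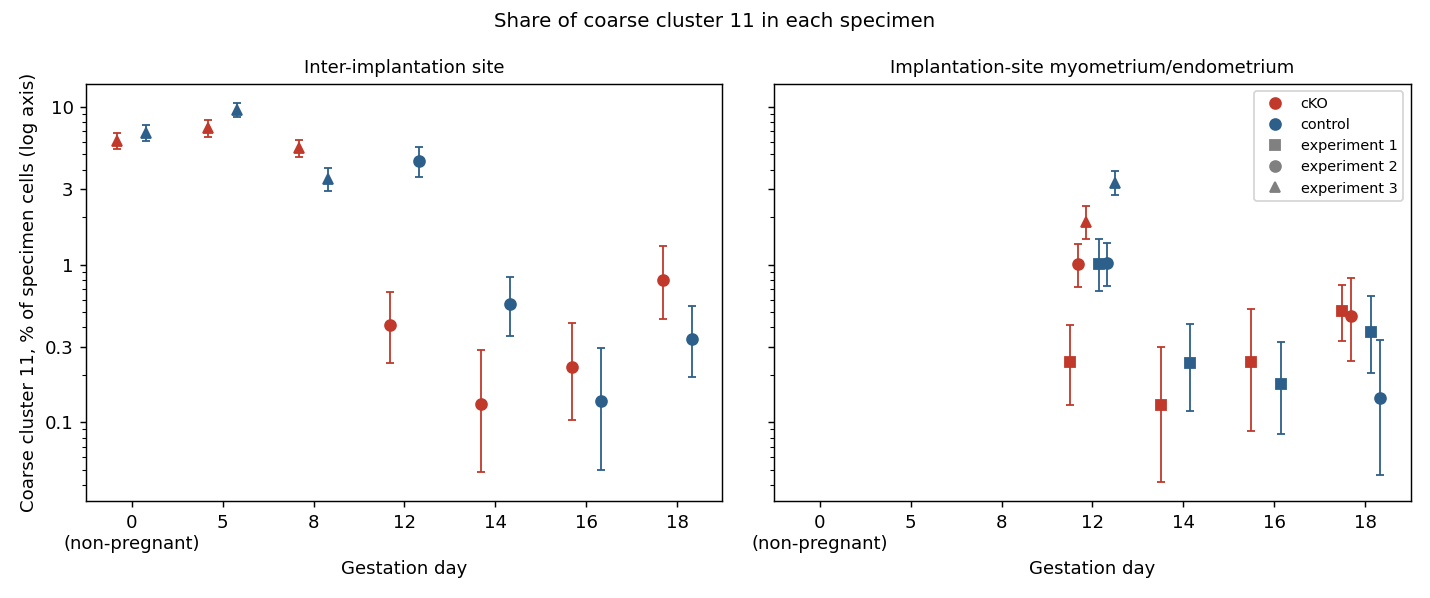
Share of coarse cluster 11 among the cells of each of 28 specimens (log axis, percent) by gestation day, for inter-implantation tissue and for implantation-site myometrium/endometrium, with cKO in red, control in blue and the experiment as the marker shape. Bars are exact 95% intervals of counting error. The 6 specimens of days 0 to 8 lie between 3.49% and 9.62%, and among later specimens only the day 12 control inter-implantation specimen (4.52%) reaches that range.

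The drop after days 0 and 5 was part of how the cluster was picked and is given without a test. Within experiment 3, the mean of the 2 inter-implantation specimens was 6.49% at day 0, 8.47% at day 5 and 4.47% at day 8. The myometrium/endometrium specimens of day 12 in that experiment averaged 2.58%, and there site and day differ together. Inter-implantation tissue of days 12 to 18 came from experiment 2 alone, so the lower shares of those days and the change of experiment cannot be told apart. With cells of at least 1000 genes alone, inter-implantation tissue of days 0 to 8 averaged 7.77% (n = 6 specimens) and that of days 12 to 18 averaged 1.18% (n = 8 specimens). The median of these 8 was 0.407%, and the day 12 control specimen had 6.34%.

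Among days 12 to 18, the slope on gestation day was -0.22 log2 units per day (SE 0.11, adjusted p = 0.0955, edgeR quasi-likelihood test with Benjamini-Hochberg adjustment, 22 specimens, with site-by-experiment group and genotype as covariates) and did not pass the threshold of 0.05. In the same fit, 29.4% of the 17 clusters tested passed. The cluster was picked for a lower share at later days, and days 12 to 18 are among them. No slope given here is therefore independent of that choice. Fits of each genotype alone were added after the pairs had been seen and are not independent of that pattern. With control specimens alone the slope was -0.48 (SE 0.11, adjusted p = 0.00278, edgeR, 11 specimens), and with cKO specimens alone it was 0.08 (SE 0.11, adjusted p = 0.584, edgeR, 11 specimens). The fit without the experiment term gave -0.33 (adjusted p = 0.0274, edgeR), while experiment 1 alone gave -0.04 and experiment 2 alone gave -0.32, neither past the threshold (adjusted p = 0.823 and 0.0783, edgeR). Without the cKO day 18 myometrium/endometrium specimen of experiment 1 it was -0.27 and passed (adjusted p = 0.0411, edgeR), and without the day 12 control inter-implantation specimen it was -0.094.

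Over the 26 pregnant specimens, the cluster took 1.45% ± 2.27 of the cells of cKO specimens and 1.92% ± 2.76 of those of control specimens (mean ± SD, n = 13 each). With each combination of site and day as a covariate, the log2 ratio of cKO over control was -0.30 (SE 0.43, adjusted p = 0.783, edgeR quasi-likelihood test). The ratio was above 0 in 6 of 13 pairs of the same site, day and experiment. The test called 0% of the 17 clusters. Before adjustment 2 had a p under 0.05, and DESeq2 called 1. The genotype ratio in inter-implantation tissue over that in myometrium/endometrium was -0.30 log2 units (SE 0.89, adjusted p = 0.896, edgeR), in a fit that called 5.88% of clusters.

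The pairs divided by day. At day 12 the cKO share was below the control share in 4 of 4 pairs, with a mean log2 ratio of -1.59 ± 1.5 (SD, n = 4 pairs) and a range from -3.45 to -0.02. At day 14 it was below in both pairs, with ratios of -2.09 and -0.88. At day 16 it was above in both pairs, with ratios of 0.73 and 0.46, and at day 18 it was above in 3 of 3, with a mean of 1.14 ± 0.66 (SD, n = 3 pairs). The directions were the same in cells with at least 1000 genes. Most of these shares rest on few cells, with 5 to 26 members in each specimen of days 14 to 18.

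A test of this pattern was added after the pairs had been seen, so it is not independent evidence of it. The log2 ratio of cKO over control changed by 0.46 per day over days 12 to 18 (SE 0.14, adjusted p = 0.0361, edgeR quasi-likelihood test, 22 specimens, pairs as a block). The fit called 11.8% of the 17 clusters, which were cluster 11 and cluster 3. The call was lost without any 1 of 7 of the 11 pairs, with adjusted p-values over the 11 fits from 0.0171 to 0.134 (edgeR). These 7 were the inter-implantation pairs of days 12, 16 and 18, the myometrium/endometrium pairs of days 12, 14 and 16 of experiment 1, and that of day 18 of experiment 2. With days 5 and 8 added the value was 0.11 (adjusted p = 0.416, edgeR).

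**Figure D2:**
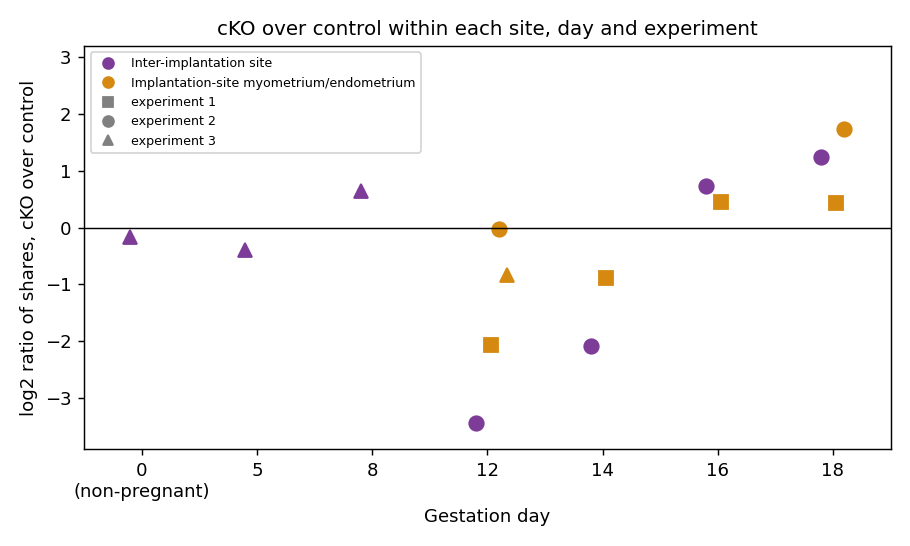
Log2 ratio of the share of coarse cluster 11, cKO over control, in each of 14 pairs of the same site, day and experiment, by gestation day. Color gives the site and marker shape the experiment. All 6 pairs of days 12 and 14 lie below 0 and all 5 pairs of days 16 and 18 above it.

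Sites could be compared within experiment 2 at days 12 and 18. Inter-implantation specimens had a share of 1.52% ± 2.01 and myometrium/endometrium specimens one of 0.659% ± 0.427 (mean ± SD, n = 4 each). The log2 ratio of inter-implantation over myometrium/endometrium was 1.07 (SE 0.82, adjusted p = 0.490, edgeR quasi-likelihood test), and 0% of 16 clusters were called (1 at an unadjusted p under 0.05, and 1 by DESeq2). With the day 12 control inter-implantation specimen left out it was -0.07 (adjusted p = 0.977, edgeR).

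The cluster was picked for its high UMI counts, so the depth of its cells is given as a description. Members had a median of 16846 UMIs (quartiles 11097 and 29982, range 983 to 118201) and 3835 genes, against 6061 UMIs and 1983 genes over all cells. Cluster 18, with 67 cells, was the only coarse cluster with a higher median (37771 UMIs). Clusters 12 and 13 were next, at 16447 and 15082 UMIs. By day in inter-implantation tissue, the median per member was 19191 UMIs at day 0, 16423 at day 5, 16786 at day 8, 12038 at day 12, 23792 at day 14, 15381 at day 16 and 19053 at day 18. The same days gave medians of 4294, 3546, 4087, 3168, 4354, 3678 and 4365 genes. Myometrium/endometrium members had medians of 16447 UMIs at day 12, 9519 at day 14, 8970 at day 16 and 16982 at day 18. At this site, days 14 and 16 had 16 members each and came from experiment 1 alone. Median UMIs over all cells were 3582 and 3792 in the pools of experiment 1, against 5626 to 8397 in those of the other experiments. The pooled medians of this site therefore mix day and experiment. Within experiment 1, cKO medians were 16129 UMIs at day 12, 20796 at day 14, 8285.5 at day 16 and 20947 at day 18. Control medians there were 10830 UMIs at day 12, 7853 at day 14, 9069.5 at day 16 and 11384 at day 18. These specimens held 5 to 28 members each. Inter-implantation tissue of days 0 to 8 came from experiment 3 and that of days 12 to 18 from experiment 2. The medians were thus above that of all cells at each site and day and in no steady order, with 15 to 31 inter-implantation cells behind each of days 14 to 18.

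**Figure D3:**
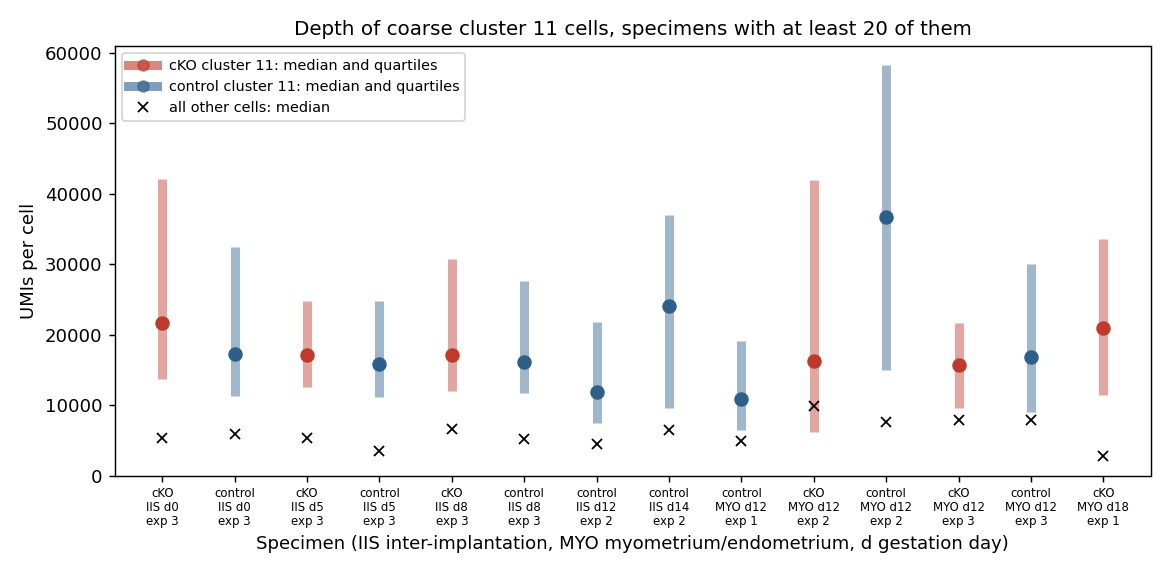
UMIs per cell in the 14 specimens with at least 20 cells of coarse cluster 11. Circles and bars give the median and quartiles of the cluster, cKO in red and control in blue, and crosses the median of all other cells of the specimen. The cluster's median is above that of the other cells in each of these specimens, and the highest is 36741 in the control myometrium/endometrium specimen of day 12 in experiment 2.

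Depth by genotype was compared in pregnant specimens with at least 20 members, in site and day combinations where both genotypes had one. Median UMIs per member were 16555 ± 715 in 4 cKO specimens and 19277 ± 10049 in 5 control specimens (mean ± SD), a difference over strata of -1076 (two-sided exact permutation test within strata, p = 0.95, smallest possible 0.025). Median genes were 3851 ± 253 in cKO specimens and 3991 ± 1059 in control specimens (mean ± SD). The difference over strata, which is what was tested, had the opposite sign, with cKO higher by 106 genes (exact permutation p = 0.75, adjusted over the 4 measures 0.95). Without the control day 12 myometrium/endometrium specimen of experiment 2, the UMI difference over strata was 1472. The strata, also used for the phase calls below, did not separate experiments. At day 12 of this site, control specimens came from experiments 1, 2 and 3 and cKO specimens from 2 and 3. Within pairs of the same experiment (8 specimens), the differences were -4834 UMIs and -347 genes. Each had an exact permutation p of 0.75, with a smallest possible p of 0.125.

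Nearly all members were called G1 by the authors, 97.98%, with 14 cells called S and 27 called G2M. These are 0.691% S and 1.33% G2M. Cluster 12, of like depth, had 79.8% of its cells called G2M, and cluster 13 had 13.3%. Low shares were not particular to cluster 11, since cluster 18 had 0% of both, and cluster 0 came next with 5.68% S and 3.42% G2M. At day 5, cells outside the cluster were 4.89% S and 12.2% G2M in cKO tissue. In control tissue of that day they were 8.14% S and 17.2% G2M. By day, inter-implantation members had 2 S and 2 G2M calls at day 0, 1 and 1 at day 5, 0 and 4 at day 8, 1 and 0 at day 12, and 0 of both at days 14, 16 and 18. Myometrium/endometrium members had 7 S and 9 G2M calls at day 12, 0 and 3 at day 14, 0 and 3 at day 16, and 3 and 5 at day 18. At this site, G2M calls were 2.81% of 320 members at day 12 and 8.77% of 57 at day 18. They were 18.75% of 16 members at each of days 14 and 16, from experiment 1 alone. All S and G2M calls of day 18 were also from experiment 1. At day 12, G2M shares of control and cKO members were 7.14% and 7.69% in experiment 1, and 4.88% and 2.44% in experiment 2. In experiment 3 they were 2.34% and 0%. The shares by day therefore mix day and experiment. Calls depend on depth and cells could not be brought to 1 depth, so they are not read as cycling. Between genotypes, the S share was 0.713% ± 1.17 in 4 cKO specimens and 3.83% ± 6.21 in 5 control specimens (mean ± SD). The difference over strata, which is what was tested, was -1.59 points (exact permutation p = 0.6). The smallest possible p was 0.05, so this test could not fall below the threshold. Without the control day 12 myometrium/endometrium specimen of experiment 1, with 14.3% of its 28 members called S, the difference was -0.27 points. The G2M share was 1.05% ± 1.24 in cKO specimens and 2.93% ± 3.06 in control specimens (mean ± SD). Its difference over strata was -0.70 points (exact permutation p = 0.525, smallest possible 0.025).

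Other values per cell varied with day and experiment. The median percent of UMIs from ribosomal protein genes was 27.8% over the cluster, and in inter-implantation tissue it was 31.5% at day 0, 22.0% at day 5 and 31.2% at day 8. At day 5 it was 25.6% in cKO members and 20.3% in control members, against 34.4% in other cKO cells and 30.1% in other control cells. The median mitochondrial percent was 2.91% over the cluster. Median hashing UMIs per member at day 0 were 1254 in cKO and 998.5 in control tissue, and at day 5 they were 153.5 in cKO and 181 in control tissue. Other cells also had fewer at day 5, with medians of 1709 in cKO and 1900 in control tissue at day 0 and 171 in cKO and 181 in control tissue at day 5. Low counts were not particular to day 5. Over inter-implantation specimens of days 5 to 18, medians of other cells were 170 to 238. In myometrium/endometrium specimens they were 637 to 1888.5. Assignment of cells to specimens rests on these counts, and their part in the shares was not tested.

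Most members shared 1 cluster at each finer resolution. At resolution 2 (61 clusters), cluster 18 of that resolution took 2020 of the 2027 members and had 2028 cells in all. Its log2 ratio of cKO over control was -0.29 (SE 0.42, adjusted p = 0.784, edgeR quasi-likelihood test), in a fit that called 1.96% of 51 clusters. At resolution 0.8 all members shared a cluster with 255 other cells, of which 254 were from coarse cluster 3, with a median of 1109 UMIs.

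Resolution 1.5 divided the members, and the next finer one divided them alike, into 1803 and 220 cells. At 1.5, cluster 20 held 1793 members with a median of 17264 UMIs and 28.8% ribosomal UMIs. Cluster 42 held 229 members with 13188 UMIs and 20.8% ribosomal UMIs, beside 251 cells of coarse cluster 3 with a median of 1093 UMIs. Within day 5, median ribosomal percent in cKO members was 21.9% in cluster 42 and 25.9% in cluster 20, and in control members it was 20.4% in cluster 42 and 19.98% in cluster 20. Of the members in cluster 42, 79.5% came from day 5, namely 25 of the 242 cKO members (10.3%, exact 95% interval 6.80% to 14.9%) and 157 of the 331 control members (47.4%, 41.95% to 52.96%). With 1 specimen of each genotype there is no replicate check of this difference. At day 12 in myometrium/endometrium, cluster 42 took 23 cKO and 7 control members. These were 1 of 13 cKO and 0 of 28 control members in experiment 1, and 12 of 41 and 0 of 41 in experiment 2. In experiment 3 they were 10 of 69 cKO and 7 of 128 control members. The cKO part was thus the higher one there, opposite to day 5. These clusters were named after their values had been seen.

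**Figure D4:**
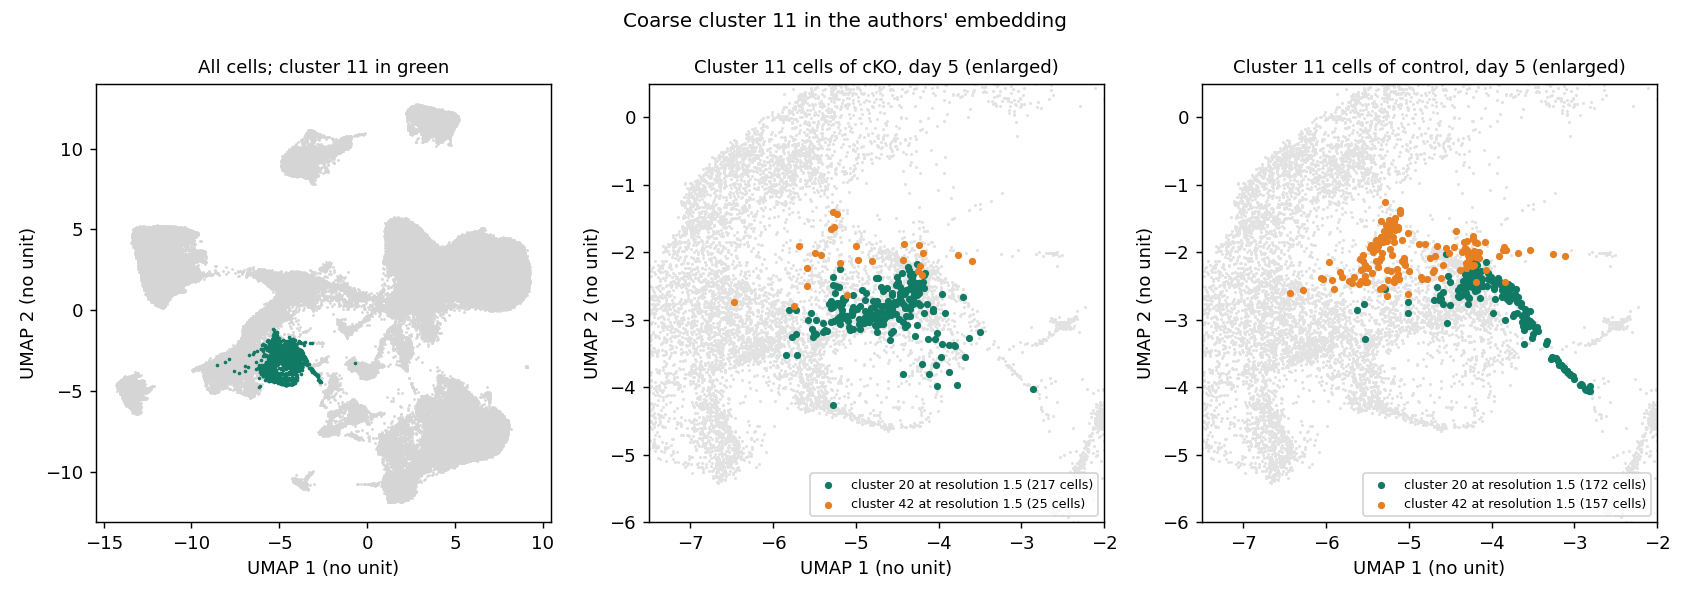
The authors' 2-dimensional embedding (axes without unit) of all cells with coarse cluster 11 in green, and an enlarged view of its day 5 cells in cKO and in control tissue. Colors in the enlarged views give the cluster at resolution 1.5, and cluster 42 takes 25 cKO cells and 157 control cells.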

How the data were processed

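Per the submitters' processing notes, the authors used Cell Ranger, Seurat and mouse build mm10. The authors deposited, for each cell, UMI, gene and hashing-UMI counts that were not normalized, the percent of mitochondrial and ribosomal UMIs, embedding score values, phase calls and Louvain clusters at 9 resolutions. Cell filters and specimen assignment are theirs, and the labels do not state the rules. Doublets were not called again.

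The 7 pools carry no group in the labels. A specimen is what the deposited annotation names, its pools added together. Nothing ties sites to a mouse, so specimens may share mice and p-values measure the spread between specimens.

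Cells per cluster were tested with edgeR 4.0.16 in R 4.3.3 (quasi-likelihood, total cells as library size, no composition factor, clusters of at least 10 cells on average, Benjamini-Hochberg, threshold 0.05). DESeq2 1.42.0 and limma 3.58.1 (logit shares, offset 0.5 cells) were alternatives, beside TMM factors, other filters and resolutions, left-out specimens and single sites or experiments. Permutation tests enumerated all arrangements with numpy 2.4.6, and exact (Clopper-Pearson) 95% intervals used scipy 1.17.1. Procedures were tested on simulated data. Clusters named are 11, its resolution 2 clusters with at least 5% of members, 12 and 13; others were chosen after their values were seen. Members and lists were chosen with earlier results of these data known.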

Additional observations from a re-analysis of the deposited data

Results flagged for a closer look

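Of 21 sets of specimens of days 12 to 18 (1 genotype and site, 1 measure), 8 held a specimen far from the others. The criterion marks about 1 in 20 sets of true replicates by chance. Each set here spans several days, so its specimens are not replicates of 1 condition and that rate need not hold. The share of coarse cluster 11 was 4.52% in the control inter-implantation specimen of day 12, where it also held 10.2% of all UMIs. It was 3.31% in the control myometrium/endometrium specimen of day 12 in experiment 3. Median UMIs per member stood apart at 49010 in the cKO inter-implantation specimen of day 16, which has 9 members, and at 36741 in the control myometrium/endometrium specimen of day 12 in experiment 2, which has 41. Phase calls stood apart in specimens with few members. They were 6.25% S in the cKO inter-implantation specimen of day 12 (1 of 16 cells), 50% G2M in the cKO myometrium/endometrium specimen of day 16 (3 of 6 cells) and 7.69% S in the cKO myometrium/endometrium specimen of day 18 in experiment 1 (2 of 26 cells).

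The fitted change of the genotype ratio over days 12 to 18 was 0.46 log2 units per day (cKO over control, adjusted p = 0.0361, edgeR). This fit was added after the pairs were seen, so its p is not independent of them. The call was lost in 7 of 11 fits that left out a pair and in 8 of 12 other alternatives. Mean log2 ratios were -1.59 at day 12, -1.48 at day 14, 0.59 at day 16 and 1.14 at day 18. Differences between single days were not tested.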

How the results depend on the processing

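The genotype ratio of the share kept its direction and stayed short of the threshold in all 14 alternatives (-0.55 to -0.17) and without each specimen (-0.44 to -0.08). With the replicate block it was -0.35 (adjusted p = 0.566, edgeR), and -0.32 for the resolution 2 cluster. The genotype-by-site value ranged from -0.71 to 0.24 without each specimen, and turned positive without either day 12 or day 14 inter-implantation specimen of experiment 2. The site ratio ranged from -0.067 to 1.67 and the slope from -0.27 to -0.094 per day. The slope was -0.11 with TMM factors (adjusted p = 0.345, edgeR), -0.33 with no experiment term, 0.078 in cKO alone and -0.48 in control alone.

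The change of the genotype ratio per day ranged from 0.37 to 0.56 without each pair. It missed the threshold with TMM factors (0.37), no filter (0.46), site-by-day strata (0.43), myometrium/endometrium alone (0.32), experiment 2 alone (0.57), experiment 1 alone (0.43), days 5 to 18 (0.11) and resolution 0.8 (0.45), and passed with limma (0.48), DESeq2 (0.46), cells of at least 1000 genes (0.51) and inter-implantation tissue alone (0.83). The cause was not tested.

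The genotype difference of median UMIs ranged from -2847 to 1472 without each specimen. It was 381.5 with at least 50 members, -3527 with at least 10 members and -4834 with the replicate block. That of median genes ranged from -197 to 360.5, and was -29.7 with at least 10 members and -347 with the replicate block. The S difference was 0.138 points with at least 50 members. The slope in experiment 3 alone could not be fitted. Small member numbers limit days 14 to 18.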
